A study of Mus musculus with 6 samples.

Results

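Imprinted genes are genes of which 1 parental copy is silenced by a mark set in the egg or the sperm. A list of 35 mouse genes reported as imprinted in published work was followed through single cells of the fetal small intestine. The genes were chosen by name, and 34 of the 35 have a row among the 24568 gene symbols of the deposited matrix. Snurf, which shares its exons with Snrpn, has none. The name of the list speaks of fetal mesenchyme, and most cells fell into clusters named as mesenchyme. The marker rule for that name was met by every cluster, a glia-like one included, so it could not tell mesenchyme from other cells. The counts do not tell the parental copies apart, so the values are levels of both copies together and imprinting itself was not measured.

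At an imprinted locus a control region carries DNA methylation on the copy from 1 parent, and neighbouring genes are then read from the maternal or the paternal chromosome only. Many of these genes are strongly transcribed in the embryo and set growth. Several paternally expressed ones, such as Igf2, Dlk1, Peg3 and Mest, promote it, and several maternally expressed ones, such as Igf2r, Cdkn1c, Grb10 and Phlda2, limit it. Many imprinted genes are known to decline after birth as tissues mature.

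The tissue came from C57/BL6 mice carrying Pdgfra-H2BGFP, a nuclear green fluorescent protein read from the gene of PDGFRA, a growth factor receptor of mesenchymal cells. All groups carried it. Tissue was taken at E13.5, E14.5, E15.5, E16.5 and E18.5, with 4, 3, 2, 2 and 2 replicates that were pooled, and the gut was cut into 2.5 mm segments (3, 5, 10, 15 and 20 per age). Dissociated cells were tagged with lipid barcodes (MULTI-seq) and sorted. The 6 samples form 4 groups: all live cells (DAPI- and Ter119-) of E15.5 and E16.5 in 2 lanes, the same of E13.5, E14.5 and E18.5 in 2 lanes, and for each of these sets of ages 1 lane of cells enriched by sorting for CD31, CD45, Epcam or high PDGFRA GFP. The sorting gate sets which cells a lane holds, so shares of cells describe lanes and not tissue.

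One matrix of unique molecular identifiers (UMIs, 1 per captured transcript) covers all 13127 cells, and no label ties any cell to its lane, embryo age or segment. Cell barcodes carry 6 suffixes. Those ending in _1 are called ending 1 and those ending in _2 ending 2, and the digit before it gives sets 1, 2 and 3 of each ending. They serve here as technical sets only. Since the matrix pools the 6 samples and its cells cannot be assigned to them, it was treated as 1 sample, no test was made, no p-value is given, and every interval is an exact 95% interval that covers counting error alone. After filtering, 12608 cells remained, with 2459, 2083 and 1177 in the sets of ending 1 and 2211, 2496 and 2182 in those of ending 2. Median depth was 12127, 13574 and 7070 UMIs per cell in ending 1 and 4184, 4112 and 3548 in ending 2. The endings also rest on different gene lists (21351 and 18222 symbols with counts, 17403 in both), so comparisons were made within an ending. Levels are given in CPM, the UMIs of a gene per 1000000 UMIs of the kept cells of a set. Across sets, 22 cell barcodes were shared by pairs of sets.

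Set 3 stood apart from sets 1 and 2 in both endings, in cell make-up as well as depth. Clusters with markers of PDGFRA-high mesenchyme, the cells next to the epithelium that supply BMP ligands, held 3.05%, 3.12% and 88.4% of cells in sets 1, 2 and 3 of ending 1 and 19.4%, 20.95% and 91.3% in ending 2. Most others were in clusters called other mesenchyme. Mesenchyme markers, collagens and Vim among them, summed to 7868, 7375 and 5411 CPM in ending 1 and 7058, 7516 and 4223 CPM in ending 2 in sets 1, 2 and 3 in that order. The 16 PDGFRA-high markers summed to 1443, 1315 and 5194 CPM in ending 1 and 1705, 1782 and 4223 CPM in ending 2. The epithelial markers summed to 536, 513 and 2627 CPM in ending 1 and 64.5, 65.3 and 141 CPM in ending 2, the blood lineage markers to 14.0, 16.3 and 115 CPM in ending 1 and 45.9, 34.3 and 84.4 CPM in ending 2, the red cell markers to 42.7, 53.7 and 41.9 CPM in ending 1 and 1862, 1806 and 3776 CPM in ending 2, the endothelial markers to 24.3, 25.8 and 86.2 CPM in ending 1 and 32.4, 30.8 and 73.2 CPM in ending 2, and the smooth muscle markers to 1562, 1605 and 572 CPM in ending 1 and 1146, 1126 and 244 CPM in ending 2. Among markers that define other lineages, Wt1 of the mesothelium was at 0 in ending 2, Tubb3 and Elavl3 of neurons were at 0 in set 3 of ending 2, and Cd3e of T cells was at 0 in sets 1 and 2 of both endings. Each comparison of set 3 with sets 1 and 2 below therefore compares unlike mixtures of cells. The part of cell mixture was examined only within classes, and the part of depth in the ratios was not tested.

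The members spread over 10 chromosomes in GENCODE M21 (GRCm38, the build mm10 of the submitters' processing notes), with 14 of 35 on chromosome 7, 7 on chromosome 6 and 5 on chromosome 12. They lie in clusters, as imprinted genes do. H19 (chr7:142575529-142578143), Igf2 (chr7:142650766-142666816), Kcnq1ot1 (chr7:143203458-143296549), Cdkn1c (chr7:143458339-143461050) and Phlda2 (chr7:143501545-143503150) share the far end of chromosome 7, and Dlk1 (chr12:109452823-109463336), Meg3 (chr12:109541001-109571726), Rian (chr12:109603940-109661716) and Mirg (chr12:109729764-109749460) follow each other on chromosome 12. In 21 of 35 members a gene of the opposite strand overlaps, among them the pairs Igf2r and Airn, Mest and Copg2, and Kcnq1ot1 and Kcnq1. Whether counting used strand is not given in the sources used here, so levels of such pairs are uncertain. Snrpn shares 27.3% of its exonic bases with another gene of its strand.

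Together the members took 8441, 8499 and 9402 CPM in ending 1 and 5263, 5466 and 7985 CPM in ending 2. Set 3 had the largest sum in both endings. The 5 members with most UMIs held 58.9%, 58.9% and 72.3% of that sum in ending 1 and 66.9%, 66.8% and 77.7% in ending 2. Meg3, Gnas and Cdkn1c were among the 5 in every set, joined by Grb10 and H19 or Dlk1 in sets 1 and 2 and by H19 and Kcnq1ot1 in set 3.

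**Figure D1:**
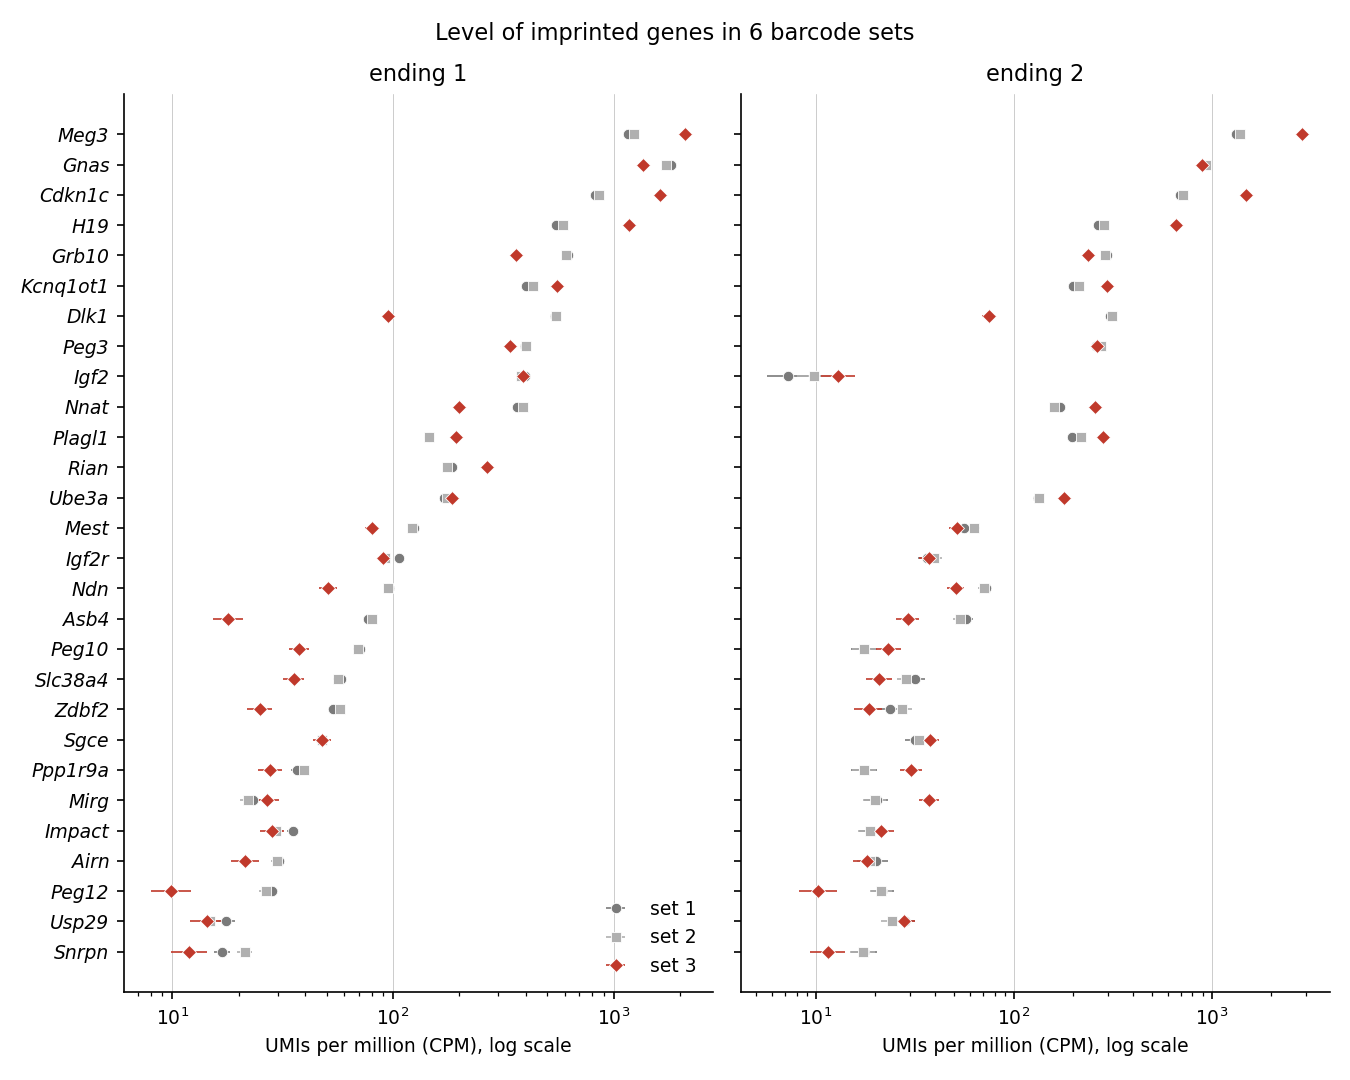
Levels of members in CPM (UMIs per 1000000, log axis) in the 6 barcode sets, with sets 1, 2 and 3 of ending 1 and of ending 2. Points are single sets with exact 95% counting intervals, and H19, Meg3 and Cdkn1c lay higher and Dlk1 and Peg12 lower in set 3 than in sets 1 and 2 of both endings.

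The first comparison asked how members differ between set 3 and the sum of sets 1 and 2. Growth-limiting H19 and Cdkn1c and the noncoding Meg3 stood higher in set 3 of both endings, by 2.06- and 2.39-fold, 1.94- and 2.13-fold, and 1.76- and 2.097-fold in endings 1 and 2. Growth-promoting Dlk1 was 5.72- and 4.14-fold lower. A member was counted as higher or lower at 2-fold or more with 20 CPM or more on the higher side. H19 passed this upward in both endings, and Dlk1 and Peg12 passed it downward in both. In ending 1, 26 members reached 20 CPM, of which 1 was higher (3.85%) and 4 were lower (15.4%), beside 9.64% higher and 5.58% lower among all 7417 genes at 20 CPM. In ending 2, 24 reached it, with 3 higher (12.5%) and 2 lower (8.33%), beside 8.62% and 5.41% among 6413 genes. Counts this small lie near the shares of all genes, so the values of single members carry the description. Sets 1 and 2 were close. Between them 0.208% of genes differed by 2-fold in ending 1 and 0.0% in ending 2, and the largest log2 ratio of set 2 over set 1 among the members at 20 CPM was 0.24 and 0.22 in size.

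**Figure D2:**
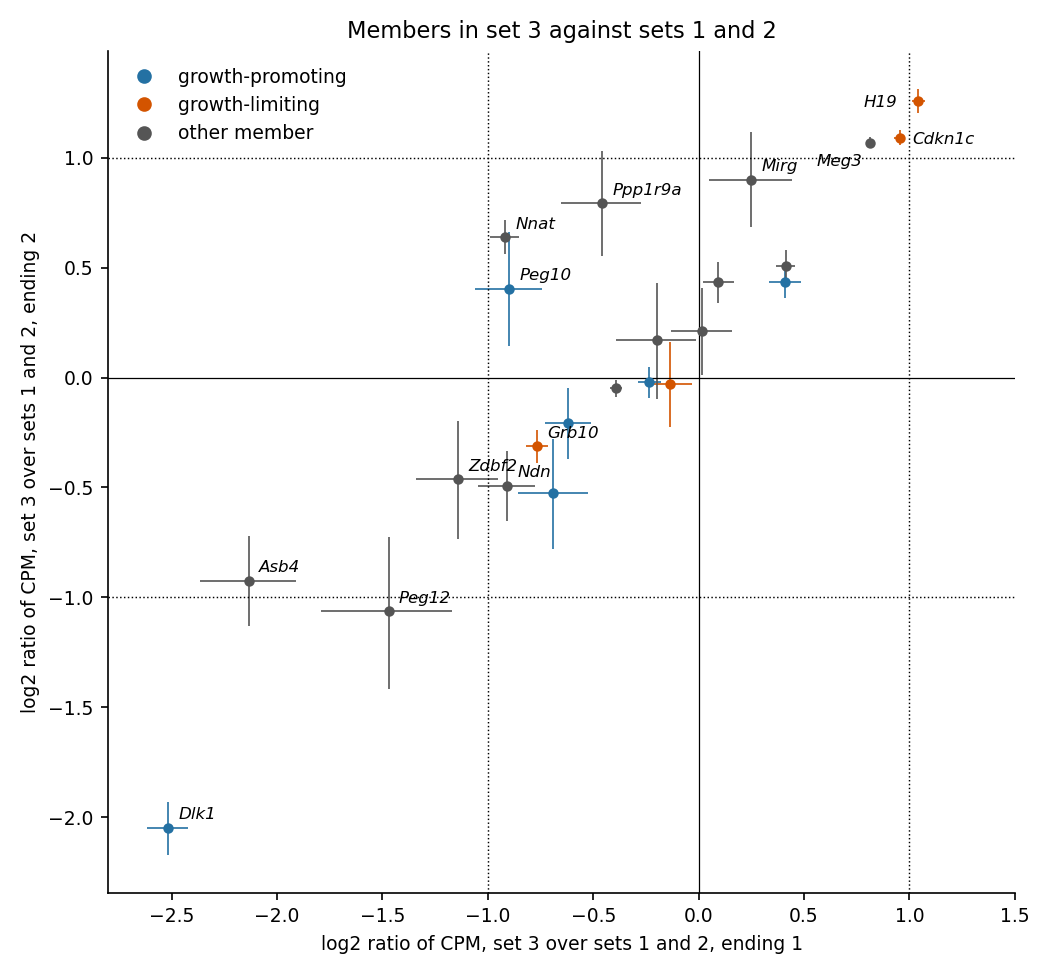
Log2 ratio of CPM in set 3 over sets 1 and 2 for each member at 20 CPM or more, ending 1 across and ending 2 up, with exact 95% counting intervals and dotted lines at 2-fold. H19, Cdkn1c and Meg3 sit at the upper right near or past 2-fold in both endings, Dlk1, Peg12 and Asb4 at the lower left, and Nnat, Peg10 and Ppp1r9a have opposite signs.

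The growth-limiting members are H19, Cdkn1c, Igf2r, Grb10 and Phlda2. H19, a maternally expressed noncoding RNA that carries the microRNA miR-675, stood at 548, 590.1 and 1169.9 CPM in sets 1, 2 and 3 of ending 1 and 265, 288 and 663 CPM in those of ending 2. Set 3 was the highest in each ending. Its log2 ratio of set 3 over sets 1 and 2 was 1.04 (1.01 to 1.07) in ending 1 and 1.26 (1.21 to 1.31) in ending 2, and against set 2 alone in ending 1 it was 0.99, just under 2-fold, so that without set 1 no member of ending 1 counted as higher. Cut to 2000 UMIs per cell, H19 was detected in 57.9%, 59.0% and 79.2% of cells in ending 1 and 34.5%, 36.6% and 61.6% in ending 2. No class of cells in the matrix is known to lack these genes, so a background share from free RNA could not be given. Cdkn1c, which encodes the cyclin-dependent kinase inhibitor p57, stood at 820.1, 856 and 1623 CPM in sets 1, 2 and 3 of ending 1 and 691, 713 and 1497 CPM in those of ending 2. Set 3 again had the highest level, with log2 ratios of 0.95 (0.93 to 0.98) in ending 1 and 1.09 (1.06 to 1.13) in ending 2. It was detected in 71.2%, 73.8% and 82.5% of cells in ending 1 and 65.0%, 65.1% and 83.5% in ending 2 at 2000 UMIs per cell.

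The other growth-limiting genes did not share this pattern. Igf2r, the receptor that clears IGF2 from the cell surface, stood at 107, 91.6 and 90.4 CPM in ending 1 and 36.4, 39.7 and 37.3 CPM in ending 2, and its log2 ratios were -0.14 in ending 1 and -0.03 in ending 2. Grb10, an adaptor that restrains signalling of the insulin and IGF1 receptors, was lower in set 3, at 618, 608 and 361 CPM in ending 1 and 296, 290.2 and 236 CPM in ending 2. Its log2 ratios, -0.77 (-0.82 to -0.72) in ending 1 and -0.31 (-0.39 to -0.24) in ending 2, stayed under 2-fold. Phlda2, which limits growth of the placenta, was under 8 CPM in every set, from 1.69 to 7.59 CPM, and was too low to be counted. Its log2 ratio was 0.24 (-0.47 to 0.89) in ending 1 and 2.15 (1.54 to 2.79) in ending 2.

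The growth-promoting members are Igf2, Dlk1, Mest, Peg3, Plagl1, Rtl1, Peg10 and Slc38a4. Dlk1, a membrane protein of the Notch ligand family that holds back differentiation of fat cell precursors, had the largest difference of any member at 20 CPM or more. It stood at 542, 546 and 95.1 CPM in sets 1, 2 and 3 of ending 1 and 307, 315 and 75.1 CPM in those of ending 2. Its log2 ratio was -2.52 (-2.62 to -2.42) in ending 1 and -2.05 (-2.17 to -1.93) in ending 2, and at 2000 UMIs it was detected in 60.2%, 59.3% and 10.99% of cells in ending 1 and 37.4%, 38.4% and 9.68% in ending 2. Igf2, the fetal insulin-like growth factor, stood at 395, 382 and 389 CPM in sets 1, 2 and 3 of ending 1 and 7.26, 9.76 and 12.97 CPM in those of ending 2. In ending 1 its 3 sets were close, with a ratio of 1.00 for set 3 over sets 1 and 2 (log2 interval -0.05 to 0.05). In ending 2 it was under 20 CPM in every set and was not counted.

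Mest, a member of a hydrolase family, stood at 124, 122 and 80.2 CPM in ending 1 and 56.1, 62.9 and 51.6 CPM in ending 2. Peg3, a zinc finger protein, stood at 398, 401 and 339 CPM in ending 1 and 259, 277 and 264 CPM in ending 2. Their log2 ratios were -0.62 and -0.23 in ending 1 and -0.21 and -0.02 in ending 2, and that of Peg3 in ending 2 turned to 0.03 without set 2. Plagl1, a zinc finger transcription factor that binds several other imprinted loci, went the other way from most of this list. It stood at 145, 146 and 194 CPM in ending 1 and 197, 218 and 281 CPM in ending 2, with log2 ratios of 0.41 (0.34 to 0.48) in ending 1 and 0.44 (0.36 to 0.51) in ending 2. Slc38a4, an amino acid transporter, was lower in set 3 of both endings, at 58.3, 56.2 and 35.5 CPM in ending 1 and 31.8, 28.6 and 20.9 CPM in ending 2 and log2 ratios of -0.69 in ending 1 and -0.53 in ending 2. Peg10, a gene derived from a retrotransposon and needed in the placenta, stood at 70.7, 69.1 and 37.5 CPM in ending 1 and 17.5, 17.6 and 23.2 CPM in ending 2, so set 3 was the lowest set of ending 1 and the highest of ending 2. Rtl1, of the same origin, lay between 0.489 and 2.23 CPM.

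As lists, the growth-promoting members had a median log2 ratio of -0.62 in ending 1 (7 counted, 6 below 0) and -0.12 in ending 2 (6 counted, 4 below 0). The growth-limiting members had medians of 0.41 and 0.53 (4 counted and 2 above 0 in each ending). The median over all members was -0.31 and 0.13, and over all genes -0.05 and 0.12. Summed, growth-promoting genes took 1736, 1724 and 1171 CPM in ending 1 and 877, 929 and 729.9 CPM in ending 2. Growth-limiting genes summed to 2095, 2149 and 3247 CPM in ending 1 and to 1291, 1333 and 2441 CPM in ending 2. The gap in the second sum came from H19 and Cdkn1c, as Igf2r and Grb10 had ratios below 0.

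The noncoding members differed by locus. Meg3, a long noncoding RNA read from the maternal copy of the Dlk1 locus, stood at 1161, 1232 and 2103 CPM in sets 1, 2 and 3 of ending 1 and 1323, 1399.9 and 2859 CPM in those of ending 2. Set 3 was highest in both endings and sets 1 and 2 were close to each other. Its log2 ratio was 0.82 (0.79 to 0.84) in ending 1 and 1.07 (1.04 to 1.09) in ending 2, past 2-fold in ending 2 only. Rian, a downstream transcript that hosts small nucleolar RNAs, stood at 184, 175 and 266 CPM in ending 1 with a log2 ratio of 0.56 (0.50 to 0.63). In ending 2 it had 0 UMIs in all 3 sets. Mirg, which hosts microRNAs of the same locus, stood at 23.2, 22.0 and 26.9 CPM in ending 1 and 20.3, 19.9 and 37.4 CPM in ending 2, with log2 ratios of 0.25 (0.05 to 0.44) in ending 1 and 0.90 (0.68 to 1.12) in ending 2. Thus the maternal transcripts of the locus were each highest in set 3 wherever they were counted, and the paternal Dlk1 was lowest there.

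Both Dlk1 and Meg3 are read from the plus strand, and their start regions are shown because the neighbours differed in opposite directions. Peg12 is shown as the other member that was lower in both endings. The windows run from 250 bases before to 50 bases after a start listed in RefSeq (GRCm38.p6), 5′ to 3′ on the gene's strand, with each CG dinucleotide, the site of DNA methylation, in capitals. Meg3 lies at chr12:109540746-109541045 on the plus strand with 13 CG, Dlk1 at chr12:109452573-109452872 on the plus strand with 9 CG, and Peg12 at chr7:62464461-62464760 on the minus strand with 12 CG.
Meg3: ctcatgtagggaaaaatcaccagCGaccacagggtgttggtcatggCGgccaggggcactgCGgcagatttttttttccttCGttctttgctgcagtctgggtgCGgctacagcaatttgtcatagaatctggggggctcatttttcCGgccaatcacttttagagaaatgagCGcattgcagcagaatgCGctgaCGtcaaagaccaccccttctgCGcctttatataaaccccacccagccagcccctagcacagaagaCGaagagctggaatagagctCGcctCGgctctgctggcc
Dlk1: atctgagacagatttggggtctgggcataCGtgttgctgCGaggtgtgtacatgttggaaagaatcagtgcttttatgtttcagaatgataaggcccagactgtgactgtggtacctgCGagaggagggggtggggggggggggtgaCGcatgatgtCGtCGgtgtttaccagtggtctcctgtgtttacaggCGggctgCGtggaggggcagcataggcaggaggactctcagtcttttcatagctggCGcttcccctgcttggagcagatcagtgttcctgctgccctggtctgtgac
Peg12: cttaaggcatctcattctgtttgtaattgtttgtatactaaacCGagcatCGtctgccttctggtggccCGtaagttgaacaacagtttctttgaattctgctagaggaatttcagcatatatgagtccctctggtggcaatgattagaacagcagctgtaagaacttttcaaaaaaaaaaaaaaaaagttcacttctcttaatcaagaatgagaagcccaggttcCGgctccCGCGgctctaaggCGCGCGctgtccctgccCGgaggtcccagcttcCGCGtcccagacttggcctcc
The letters give the sequence only, and methylation was not measured. Of 35 members 29 had such a window, and those without one were H19, Cdkn1c, Rtl1, Sgce, Peg10 and Impact. The median member window held 13 CG, with an observed over expected CG ratio of 0.602 and 55.7% GC, beside 7 CG, 0.389 and 52.7% over all 27025 windows of this length. A ratio of 0.6 or more was found in 15 member windows (51.7%) and in 36.5% of all windows.

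Kcnq1ot1 and Airn are long antisense RNAs that silence neighbours on the paternal copy, the first at the Cdkn1c locus and the second at the Igf2r locus. Kcnq1ot1 stood at 400.4, 429 and 551 CPM in ending 1 and 199.8, 213 and 294 CPM in ending 2, with log2 ratios of 0.41 (0.37 to 0.46) in ending 1 and 0.51 (0.44 to 0.58) in ending 2. Airn stood at 30.6, 29.9 and 21.4 CPM in ending 1 and 20.2, 18.7 and 18.2 CPM in ending 2, with a log2 ratio of -0.50 (-0.72 to -0.29) in ending 1. The first was thus highest in set 3 of both endings, and so was its neighbour Cdkn1c.

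In the Snrpn region of chromosome 7, the paternally expressed Peg12, Ndn and Snrpn had lower levels in set 3. Peg12, an intronless gene of the Frat family of GSK3-binding proteins, stood at 28.2, 26.7 and 9.90 CPM in sets 1, 2 and 3 of ending 1 and 21.7, 21.3 and 10.3 CPM in those of ending 2. Its log2 ratio was -1.47 (-1.79 to -1.17) in ending 1 and -1.06 (-1.42 to -0.73) in ending 2, and it was detected in 5.01%, 5.76% and 2.39% of cells in ending 1 and 4.19%, 3.74% and 1.75% in ending 2 at 2000 UMIs. Ndn, a MAGE family protein, stood at 96.2, 95.03 and 50.9 CPM in ending 1 and 72.3, 70.9 and 50.9 CPM in ending 2, and its ratios of -0.91 (-1.05 to -0.77) in ending 1 and -0.49 (-0.65 to -0.33) in ending 2 did not reach 2-fold. Snrpn, a protein of splicing particles, stood at 16.8, 21.3 and 11.9 CPM in ending 1 and 17.5, 17.3 and 11.5 CPM in ending 2, lowest in set 3 of each ending. Magel2, a relative of Ndn, was at most 0.745 CPM in any set. Ube3a, a ubiquitin ligase that is imprinted in neurons, stood at 171, 175 and 185 CPM in ending 1 and 132, 135 and 180.2 CPM in ending 2, with log2 ratios of 0.09 in ending 1 and 0.43 in ending 2.

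Near Peg10 on chromosome 6, Asb4, which encodes a protein with ankyrin repeats and a SOCS box, had the second largest difference in ending 1 among members at 20 CPM or more. It stood at 77.5, 80.4 and 17.98 CPM in sets 1, 2 and 3 of ending 1 and 57.2, 53.6 and 29.1 CPM in those of ending 2, and its log2 ratio was -2.13 (-2.36 to -1.91) in ending 1 and -0.92 (-1.13 to -0.72) in ending 2. Sgce, a sarcoglycan, stood at 47.2, 47.6 and 47.9 CPM in ending 1 and 31.6, 33.2 and 37.6 CPM in ending 2, with log2 ratios of 0.02 (-0.13 to 0.16) in ending 1 and 0.21 (0.01 to 0.41) in ending 2. Ppp1r9a, an actin-binding protein, stood at 36.7, 39.4 and 27.7 CPM in ending 1 and 17.5, 17.5 and 30.3 CPM in ending 2, with log2 ratios of -0.46 (-0.65 to -0.27) in ending 1 and 0.79 (0.56 to 1.03) in ending 2. Zdbf2, a paternally expressed zinc finger gene of chromosome 1, stood at 53.2, 57.3 and 24.98 CPM in ending 1 and 23.6, 27.2 and 18.48 CPM in ending 2, with log2 ratios of -1.14 (-1.34 to -0.95) in ending 1 and -0.46 (-0.73 to -0.20) in ending 2. Zdbf2 and Asb4 completed the 4 members lower by 2-fold in ending 1, and both had ratios below 0 in ending 2.

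Nnat, a small membrane protein of the endoplasmic reticulum, stood at 365, 389.9 and 199 CPM in sets 1, 2 and 3 of ending 1 and 172, 160.0 and 258 CPM in those of ending 2. Set 3 was the lowest set of ending 1 and the highest of ending 2, with log2 ratios of -0.92 (-0.99 to -0.85) in ending 1 and 0.64 (0.56 to 0.72) in ending 2. Gnas, which encodes the stimulatory G protein alpha subunit among other products, stood at 1824, 1719.8 and 1352 CPM in ending 1 and 904, 935 and 890.3 CPM in ending 2, with ratios of -0.39 in ending 1 and -0.05 in ending 2. Impact, a regulator of translation under stress, stood at 35.1, 29.7 and 28.3 CPM in ending 1 and 19.1, 18.8 and 21.3 CPM in ending 2. Usp29, a ubiquitin protease of the Peg3 locus, stood at 17.6, 14.8 and 14.4 CPM in ending 1 and 28.1, 24.2 and 27.9 CPM in ending 2, and its set 3 lay within the range of the other sets in ending 2. The members under 20 CPM in every set were Rtl1, Magel2, Phlda2, Zim1, Nap1l5 and Copg2. Zim1 lay between 3.79 and 12.2 CPM, Nap1l5 between 10.9 and 18.1 CPM and Copg2 between 14.5 and 19.4 CPM.

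Genes that act with the members were followed in the same comparison. Of 15 genes of the IGF axis (ligand Igf1, receptors, adaptors and binding proteins), 13 were counted in ending 1 with 1 higher and 2 lower, and 12 in ending 2 with 2 higher and 3 lower. Irs1, an adaptor of both receptors, was higher in both endings with log2 ratios of 1.41 and 1.54, and the binding protein Igfbp2 was lower in both with -3.01 and -1.96. The median over the counted genes was 0.03 and 0.23, beside -0.05 and 0.12 over all genes. Of 13 genes that maintain or remove imprinting marks, 11 were counted in each ending, with 0 higher and 2 lower in ending 1 and 1 higher and 2 lower in ending 2. Dnmt1, the maintenance DNA methyltransferase, had log2 ratios of -1.10 and -1.07, and Uhrf1, which brings it to replicating DNA, -1.78 and -1.34. Both are also genes of S phase. Cycling cells made up 19.1% and 9.68% of set 3 in endings 1 and 2 (defined below) against 35.9% or more in each other set, and their part in these ratios was not tested. The list's median was 0.07 and 0.31. Of 27 further imprinted genes 10 were counted in each ending, with a median of -0.12 and 0.10. Among them only Dcn, which is also a mesenchyme marker, was lower in both, with -2.37 and -2.65.

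Igf2 and Rian showed how far the endings differ as counts. Over whole endings Igf2 stood at 388.8 CPM (26789 UMIs) in ending 1 and 9.80 CPM (287 UMIs) in ending 2, a 39.7-fold gap, whereas H19 stood at 649 and 385 CPM. In GENCODE M21, Gm49394 (chr7:142650769-142669942) overlaps Igf2 on the same strand and covers 62.8% of its exonic bases and 497 of its last 500 bases, the end that this chemistry reads. Its own row had 0 UMIs in both endings. Among 19 genes that were 16-fold or more higher in ending 1 but counted in ending 2, 8 (42.1%) shared 50% or more of their last 500 bases with another gene of the same strand, beside 0.763% of the 6552 genes with a smaller gap. Rian was at 191.5 CPM in ending 1 and at 0 UMIs in ending 2, as were the host genes Gas5 and Snhg1 at 832.5 and 293 CPM in ending 1. Atp5o and Cct6a, at 383.7 and 341.9 CPM in ending 1, also had 0 UMIs in ending 2. Of 73 genes at 20 CPM or more in ending 1 and 0 UMIs in ending 2, 1 (1.37%) shared its last bases in this way. Whether annotation, age or another difference between the endings set these gaps was not tested. For both genes only single values of ending 1 are given below, while sums of growth-promoting genes in ending 2 still include Igf2.

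The second comparison set PDGFRA-high mesenchyme against other mesenchyme within each set, which holds the set fixed. Cdkn1c and Meg3 were higher in PDGFRA-high cells of all 6 sets, and Dlk1 and Asb4 were lower in all 6. The members had been left out of the genes used for clustering, but the classes come from the same cells, so the values are a description. Some PDGFRA-high clusters of ending 1 also carried epithelial and blood markers, which are named at the end. A 2-fold difference in both sets 1 and 2 of ending 2 was met upward by Cdkn1c and downward by Dlk1, Peg12 and Asb4, of 25 counted members, beside 7.33% and 6.83% of 5945 genes. With the top 10% of cells by Pdgfra against cells without a Pdgfra UMI in place of the classes, 0 members were higher and only Dlk1 was lower, beside 4.43% and 3.18% of 5825 genes. In sets 1 and 2 of ending 1, where PDGFRA-high cells numbered 140 in all, it was met upward by Meg3 and downward by Peg12, Peg10, Zdbf2 and Asb4, of 27 members, beside 8.49% and 6.33% of 7184 genes. One PDGFRA-high cluster holds 51 of those 140 cells and had only 89.5 CPM of Pdgfra, and without it the counts were 0 higher and 5 lower of 26, the latter with Dlk1 added, beside 8.29% and 6.23% of 7041 genes. Over all 6 sets only Asb4 met 2-fold, of 22 members, beside 3.13% higher and 3.65% lower of 5530 genes. By direction alone, 4 of 22 members were higher in all 6 sets (18.2%: Meg3, Kcnq1ot1, Cdkn1c and Ube3a) and 7 lower (31.8%: Dlk1, Grb10, Ndn, Gnas, Zdbf2, Asb4 and Slc38a4), beside 23.2% and 28.1% of all genes.

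**Figure D3:**
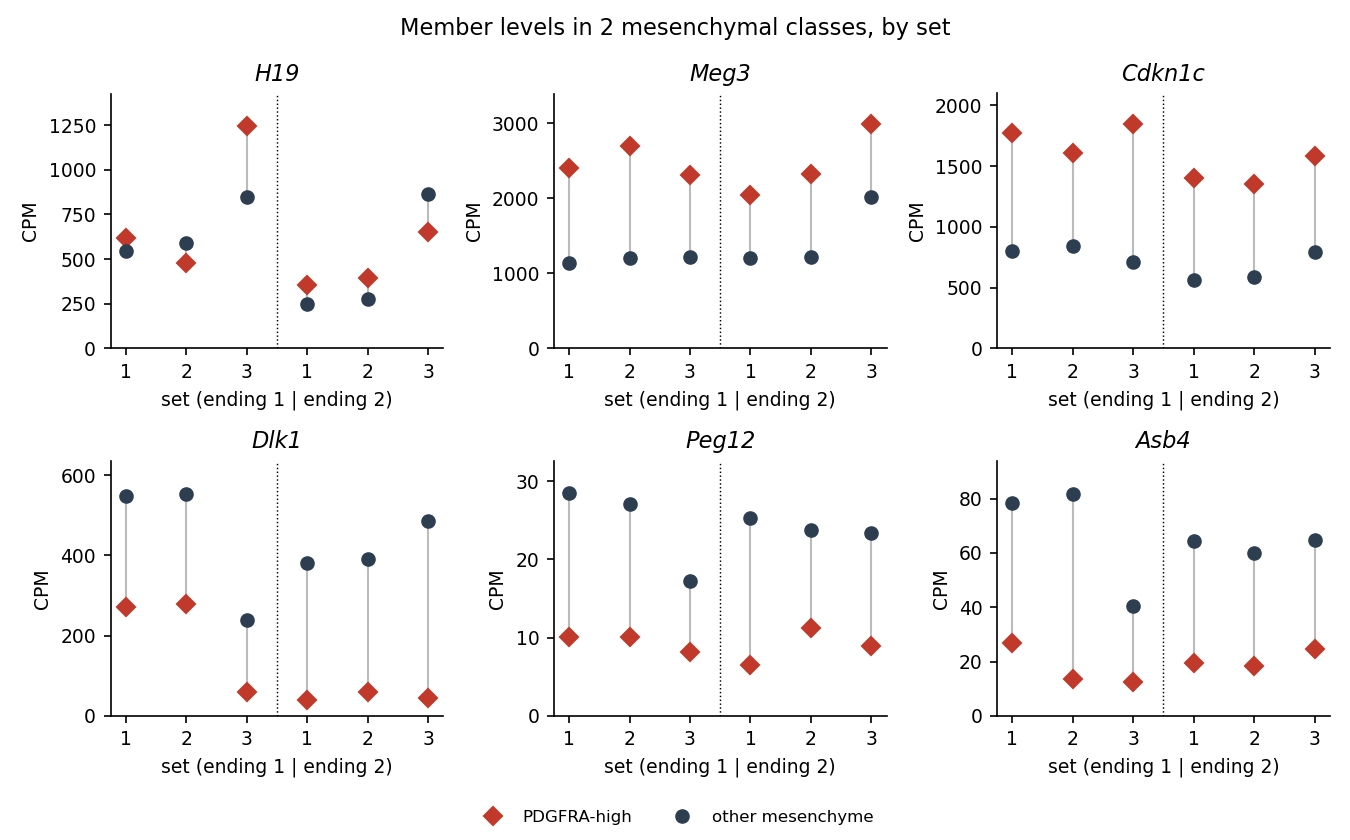
CPM of 6 members in PDGFRA-high (diamonds) and other mesenchyme (circles) of each set, ending 1 left and ending 2 right of the dotted line. Meg3 and Cdkn1c are higher and Dlk1, Peg12 and Asb4 lower in PDGFRA-high cells of every set, while H19 changes order between sets and is higher in both classes of set 3 than in those of sets 1 and 2.

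Cdkn1c stood, in PDGFRA-high against other mesenchyme, at 1772 against 801, 1611 against 841, 1843 against 709.7, 1402 against 561, 1355 against 584 and 1585 against 796 CPM in the sets in order from set 1 of ending 1 to set 3 of ending 2. Its level in PDGFRA-high cells of any set was above that of other mesenchyme in every set. Meg3 stood at 2406 against 1137, 2702 against 1201, 2316 against 1219, 2048 against 1208, 2324 against 1218 and 2994 against 2018 CPM in the same order, with the higher value in PDGFRA-high cells each time. H19 did not have the same order in every set. It stood at 619 against 546, 479.6 against 592, 1248 against 847, 352 against 247, 397 against 274 and 654 against 864 CPM, higher in PDGFRA-high cells of 4 sets and lower in 2. Without the cluster of low Pdgfra it was also higher in set 2 of ending 1, with a log2 ratio of 0.09, which leaves set 3 of ending 2 as the exception.

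In ending 2 Dlk1 had the widest gap between the classes of any member counted. It stood at 271 against 548, 279 against 552, 60.6 against 238, 38.9 against 381, 59.0 against 391 and 45.05 against 486 CPM, and single clusters ranged from 23.8 to 1074 CPM in ending 1 and from 32.6 to 619 CPM in ending 2. Asb4 stood at 26.9 against 78.5, 13.51 against 81.8, 12.6 against 40.5, 19.4 against 64.3, 18.2 against 60.0 and 24.5 against 64.8 CPM. Peg12 stood at 10.1 against 28.5, 10.1 against 27.0, 8.15 against 17.2, 6.48 against 25.3, 11.3 against 23.8 and 8.93 against 23.4 CPM. In all 3 genes each set had the lower value in PDGFRA-high cells.

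Holding the class fixed changed the comparison of set 3 with sets 1 and 2. Within PDGFRA-high cells the log2 ratio of Cdkn1c was 0.12 (0.06 to 0.19) in ending 1 and 0.20 (0.15 to 0.25) in ending 2, and that of Meg3 was -0.14 (-0.20 to -0.08) and 0.45 (0.41 to 0.48). These stand against 0.95 and 1.09 for Cdkn1c and 0.82 and 1.07 for Meg3 over all cells. Without the cluster of low Pdgfra, Meg3 in ending 1 turned to 0.13 (0.06 to 0.21). H19 remained higher in set 3 within PDGFRA-high cells, at 1.18 (1.07 to 1.30) and 0.80 (0.71 to 0.89), and within other mesenchyme, at 0.57 (0.50 to 0.65) and 1.73 (1.59 to 1.86). Without that cluster its ratio in PDGFRA-high cells of ending 1 was 0.81 (0.69 to 0.94). Dlk1 was lower within PDGFRA-high cells of ending 1, at -2.18 (-2.39 to -1.97), or -1.61 without that cluster, and at -0.15 (-0.42 to 0.13) in ending 2. In other mesenchyme it was at -1.21 (-1.35 to -1.07) in ending 1 and 0.33 (0.15 to 0.51) in ending 2. In ending 2, then, the lower Dlk1 of set 3 was not seen within either class, whereas the higher H19 was seen in both. Other mesenchyme of set 3 held only 137 cells in ending 1, 125 of them cycling (defined below), and 115 in ending 2. PDGFRA-high clusters of ending 1 ranged from 273 to 1554 CPM of H19, so unlike mixtures of cells may remain within a class. Restricted to PDGFRA-high cells, 1 member (H19) was higher and 1 (Dlk1) lower by 2-fold in ending 1, beside 1.93% and 1.95% of 7214 genes, and 0 in either direction in ending 2, beside 0.479% and 0.281% of 6054 genes. The sign of the ratio differed from that over all cells in 9 of 26 members in ending 1 and 9 of 24 in ending 2, Peg10 among them in both and Asb4 in ending 2 (0.39 (-0.03 to 0.82)).

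Correlations among members were taken within each set over cells cut to 2000 UMIs, on log2(count + 1), and averaged over the sets of an ending. They are descriptions, since cells of a set share a library. Members and other genes needed 50 CPM or more in every set of the ending. In ending 1 the median over 120 pairs of 16 members was 0.0181, beside 0.0003 over all pairs of such genes. In ending 2 it was 0.0113 over 78 pairs of 13 members, beside 0.0001. Nearly all of these are weak. The upper 5% of all gene pairs began at 0.0295 in ending 1, which 48 member pairs passed (40.0%), and at 0.0259 in ending 2, which 25 passed (32.1%). The lower 5% held 9 and 5 member pairs. The other genes were not matched to the members in level, and the part of level in these shares was not tested.

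**Figure D4:**
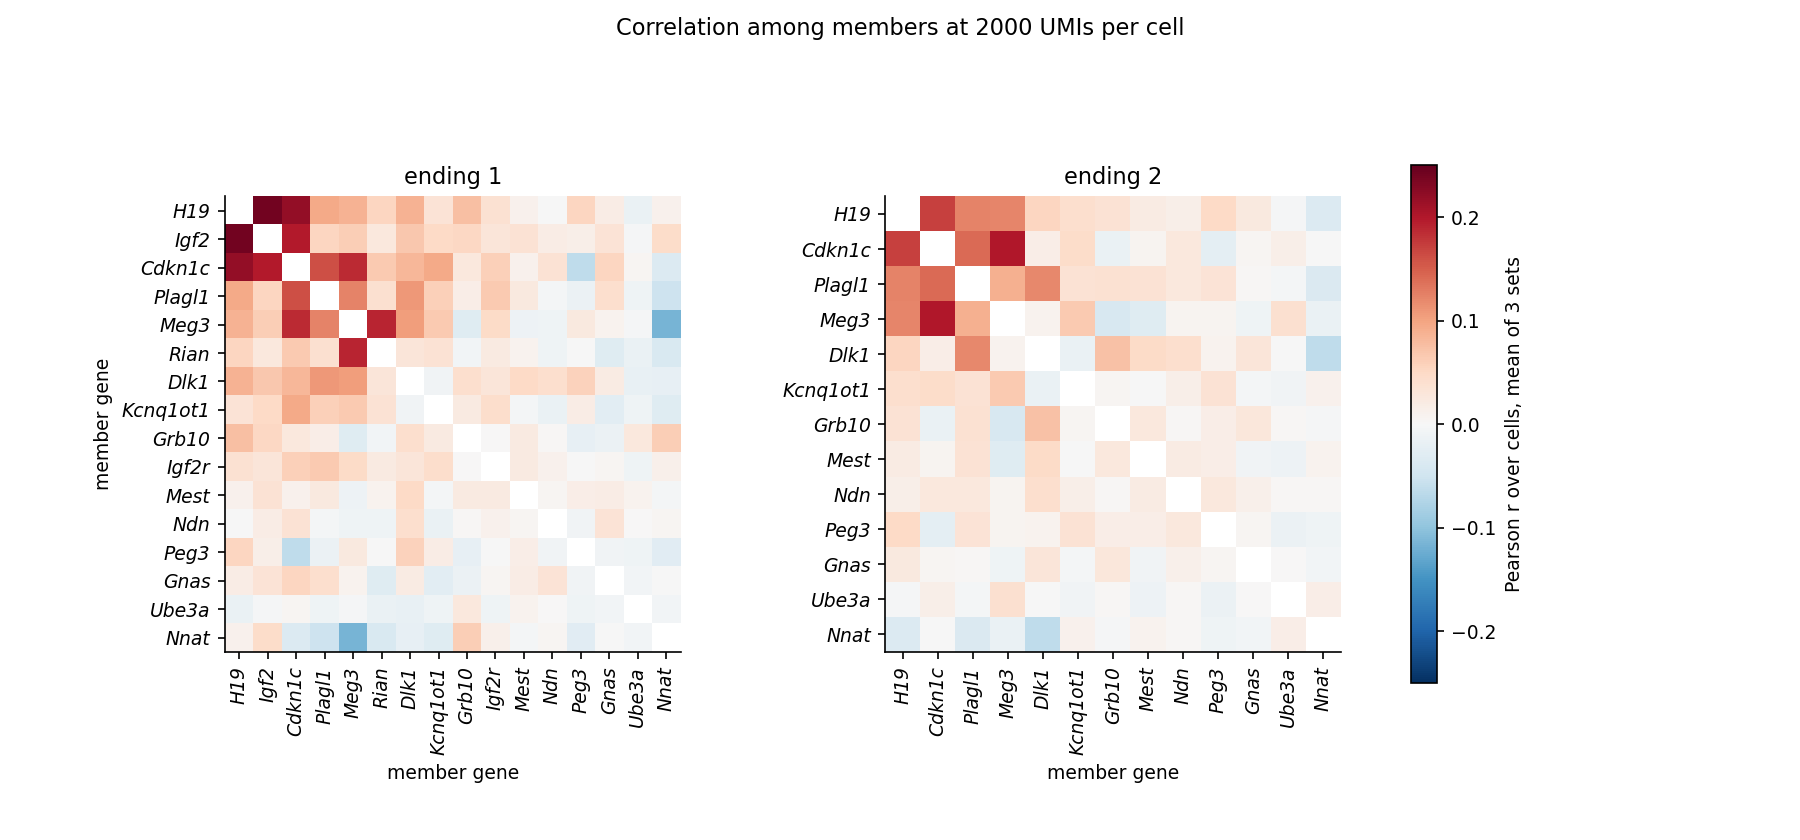
Pearson correlation of member pairs over cells cut to 2000 UMIs, mean of the 3 sets of ending 1 (left) and ending 2 (right). H19, Cdkn1c and, where counted, Igf2 and Plagl1 form the red block at the upper left, and Nnat has the lowest values, with Meg3 in ending 1 and Dlk1 in ending 2.

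Growth-promoting Igf2 and growth-limiting H19, neighbours that share enhancers, had the largest correlation of ending 1, at 0.241 (0.208, 0.237 and 0.278 in sets 1, 2 and 3). They are read from opposite parental copies, and both were found in the same cells. Among cells with 0, 1, 2 and 3 or more H19 UMIs of 2000, Igf2 was detected in 39.2, 47.5, 53.7 and 68.4% in set 1, 34.4, 41.5, 52.9 and 64.5% in set 2 and 41.0, 39.9, 51.9 and 60.9% in set 3. Cut at 1000 UMIs the correlation was 0.162 and at 5000 UMIs 0.345, so its size rose with depth. In each set Igf2 was detected more often in cells with 2 or more H19 UMIs than in cells with 0. Over other mesenchyme alone the correlation was 0.173.

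Next came H19 with Cdkn1c at 0.219 (0.169, 0.186 and 0.302 in sets 1, 2 and 3), Igf2 with Cdkn1c at 0.198, Meg3 with Rian at 0.191 (0.109, 0.122 and 0.343 in sets 1, 2 and 3) and Meg3 with Cdkn1c at 0.187. In ending 2 the largest were Meg3 with Cdkn1c at 0.201 (0.212, 0.223 and 0.168 in sets 1, 2 and 3), H19 with Cdkn1c at 0.171, Cdkn1c with Plagl1 at 0.142, H19 with Plagl1 at 0.124 and H19 with Meg3 at 0.122. Cdkn1c was in 3 of the 5 largest pairs of each ending. Over other mesenchyme alone in ending 2, Meg3 with Cdkn1c stood at 0.112 and H19 with Cdkn1c at 0.081, with -0.038 in its lowest set. Cdkn1c with Plagl1 stood there at 0.210, H19 with Plagl1 at 0.210 and H19 with Meg3 at 0.130. Among cells with no cycling UMI Meg3 with Cdkn1c stood at 0.086 in ending 1. The lowest pairs were Meg3 with Nnat at -0.115 (-0.092, -0.056 and -0.199 in sets 1, 2 and 3), Peg3 with Cdkn1c at -0.064 and Plagl1 with Nnat at -0.051 in ending 1, and Dlk1 with Nnat at -0.064, Meg3 with Grb10 at -0.040 and Plagl1 with Nnat at -0.036 in ending 2. Over other mesenchyme alone Meg3 with Nnat stood at 0.002 in ending 1.

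Growth-promoting and growth-limiting sums did not oppose each other across cells. Their correlation was 0.222 in ending 1 (0.229, 0.181 and 0.257 in sets 1, 2 and 3) and 0.1115 in ending 2 (0.0962, 0.137 and 0.101). All 6 values were above 0, but no sums of other genes were set beside them. Single pairs across the lists ranged in ending 1 from 0.241 for H19 with Igf2 to -0.064 for Peg3 with Cdkn1c. Neighbours within 1 imprinted locus had a median of 0.0997 over 6 pairs in ending 1 beside 0.0176 over the other 114, but in ending 2, without Igf2 and Rian, 0.0089 over 3 pairs beside 0.0126 over 75. Dlk1 with Meg3 stood at 0.105 and 0.0089, and Kcnq1ot1 with Cdkn1c at 0.095 and 0.046. Pairs of 1 locus below the 50 CPM limit differed. Peg3 with Usp29 stood at 0.073 and 0.074 in endings 1 and 2, and Peg3 with Zim1 at 0.083 and 0.068. Meg3 with Mirg stood at 0.043 and 0.074, and Peg10 with Asb4 at 0.066 and 0.026. Others lay near or below 0, such as Mest with Copg2 at 0.013 and -0.007, Ndn with Snrpn at -0.021 and 0.013 and Peg10 with Sgce at -0.012 and -0.003.

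The genes outside the list most like each member, by the same measure over 3 sets, often included Malat1, an abundant nuclear noncoding RNA. For Meg3 they were Malat1 (0.310), Tmem176b (0.231) and Tmem176a (0.218) in ending 1 and Malat1 (0.358), Rgs10 (0.186) and Tgfbi (0.163) in ending 2, and for Cdkn1c Malat1 (0.180), Tsc22d1 (0.176) and Hoxc8 (0.166) and Malat1 (0.295), Tgfbi (0.182) and Rgs10 (0.179). H19 was nearest to Ccnd2 (0.126), Tsc22d1 (0.121) and Tshz2 (0.101) in ending 1 and Malat1 (0.148), Rgs10 (0.102) and Col1a2 (0.097) in ending 2, and Igf2 to Ccnd2 (0.139), Hmga2 (0.107) and Acta2 (0.107) in ending 1. Malat1 also led for Kcnq1ot1, followed by Tshz2 and Ccnd2 in ending 1 and by Pdgfra and Gm26917 in ending 2, and for Rian, followed by Npr3 and Tmem176b. Collagen genes were prominent for Plagl1, with Col3a1 (0.144), Ptn (0.139) and Col1a2 (0.135) in ending 1 and Lsp1 (0.172), Col3a1 (0.172) and Col1a1 (0.153) in ending 2. Nnat was nearest to Npm1 (0.133), Hmga2 (0.131) and Tubb2b (0.130) in ending 1 and Bmp3 (0.117), Col23a1 (0.112) and Cped1 (0.108) in ending 2. Grb10 was nearest to Hmga2 (0.087), Meis1 (0.073) and Hnrnpa1 (0.071) in ending 1 and Lsp1 (0.115), Col3a1 (0.093) and Col14a1 (0.085) in ending 2. For Peg3 the values were Stox2 (0.078), Colec10 (0.077) and Pkdcc (0.071) and Col3a1 (0.082), Plac8 (0.077) and Zeb2 (0.077). Gnas and Ube3a had no partner above 0.070. Their nearest genes were Ccn1, Col3a1 and Col1a2 for Gnas and Apoa1, Pnn and Tenm3 for Ube3a in ending 1, and Rbm3, Lgals1 and 0610012G03Rik and 9530068E07Rik, Ly6e and Alkbh5 in ending 2.

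The last comparison was with the cell cycle. Cycling cells had 3 or more UMIs of 22 cycle genes (Mki67, Top2a and Pcna among them) in 2000, and non-cycling cells had 0. By this measure 63.1%, 64.5% and 19.1% of cells in ending 1 and 39.4%, 35.9% and 9.68% in ending 2 were cycling. The growth inhibitor Cdkn1c and Meg3 were lower in cycling cells of all 6 sets, and Asb4 was higher in all 6. PDGFRA-high cells made up at most 3.12% of cycling cells in sets 1 and 2 but 44.2% and 36.2% in set 3 of endings 1 and 2, and 99.5% and 97.8% of the non-cycling cells there. Of the non-cycling cells of sets 1 and 2 they made up 13.4% and 11.8% in ending 1 and 38.2% and 36.8% in ending 2. Cycling and non-cycling cells thus differed in class in every set. Cycling cells were also deeper, for example 14237 against 7979 median UMIs in set 1 of ending 1. A member was counted at 1.5-fold in the same direction in all 3 sets of an ending. In ending 1 Peg10 and Asb4 were higher and 0 of 25 members lower, beside 7.92% and 4.37% of 6528 genes. In ending 2 Asb4 was higher and 0 of 20 lower, beside 7.37% and 3.2% of 5629 genes. These upward counts fell to 0 in ending 1 with genes of the G2 and M phases only (beside 6.33% of genes) or at 1000 UMIs (7.38%), and to 0 in ending 2 with 1 or more cycling UMIs as the limit (2.21%). Cdkn1c and Meg3 were both 1.5-fold lower in sets 1 and 2 of ending 2, but not in its set 3, and without that set they counted as lower, beside 5.05% of genes.

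Asb4 had log2 ratios of cycling over non-cycling cells of 1.04, 0.92 and 1.71 in sets 1, 2 and 3 of ending 1 and 1.04, 0.90 and 0.69 in ending 2. In cells with 0, 1 to 2, 3 to 9 and 10 or more cycling UMIs it stood at 42.1, 60.4, 94.5 and 78.3 CPM in set 1 of ending 1 and 9.97, 14.4, 23.2 and 40.5 CPM in set 3. Peg10 had ratios of 1.15, 0.86 and 1.39 in ending 1, and stood at 35.4, 58.5, 82.6 and 74.0 CPM across the same steps in set 1. Both held in other mesenchyme of sets 1 and 2 alone, where Asb4 was at 0.91 and 0.81 and Peg10 at 1.04 and 0.72 in ending 1. Too few non-cycling cells of other mesenchyme were left in set 3, 2 in ending 1 and 24 in ending 2, to ask the same there.

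**Figure D5:**
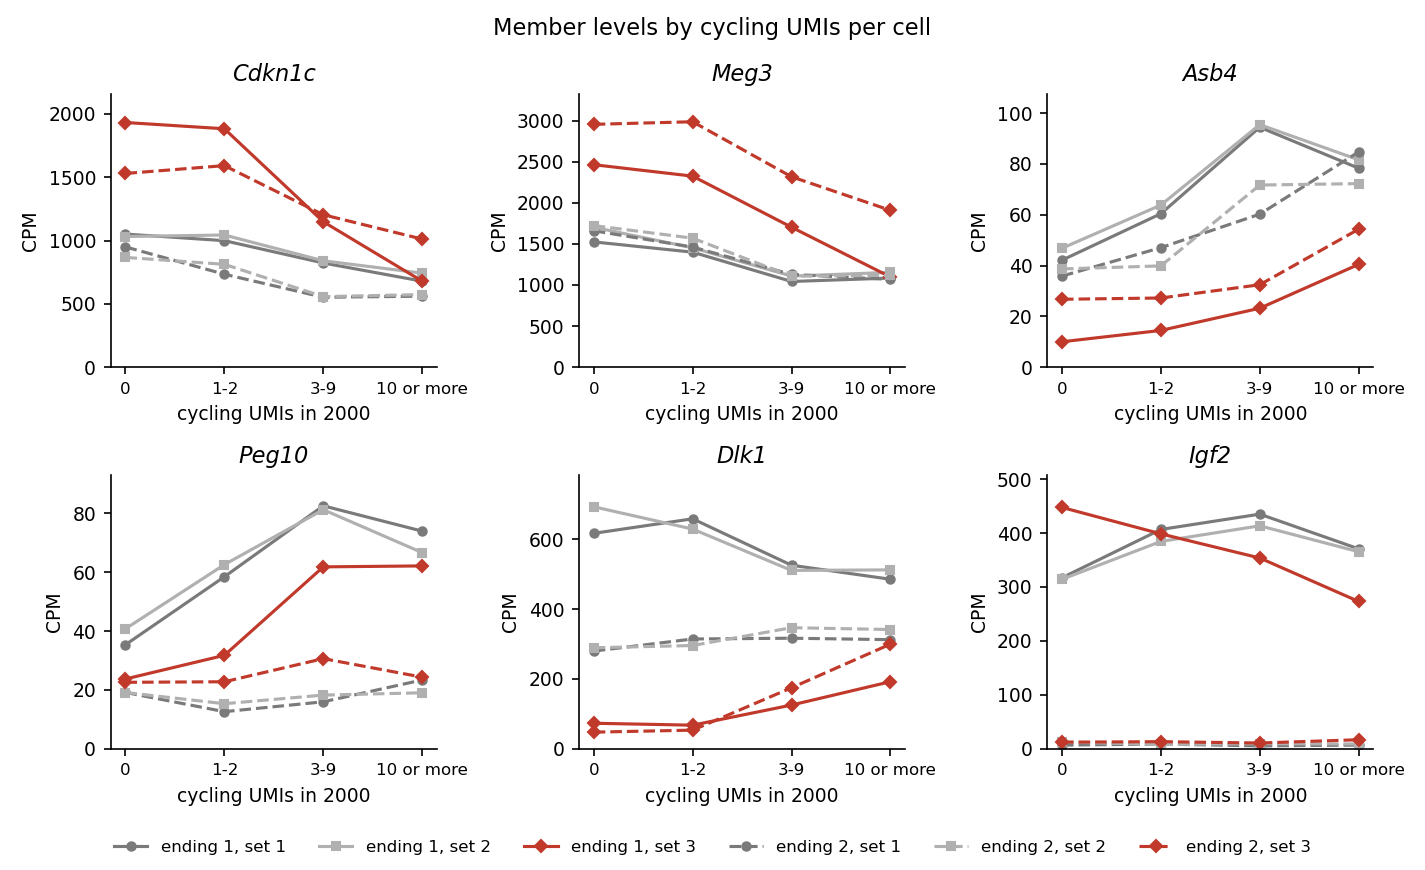
CPM of 6 members in cells with 0, 1-2, 3-9 and 10 or more cycling UMIs of 2000, 1 line per set (solid for ending 1, dashed for ending 2, red for set 3). Cdkn1c and Meg3 are lower and Asb4 higher in cells with 3 or more cycling UMIs than in those with 0, in all 6 sets. In set 3 of both endings Dlk1 is more than 2-fold higher in cells with 10 or more than in those with 0.

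Cdkn1c had log2 ratios of -0.49, -0.38 and -1.11 in ending 1 and -0.77, -0.62 and -0.46 in ending 2. From 0 to 10 or more cycling UMIs it stood at 1051, 999, 823 and 679 CPM in set 1 of ending 1, 1933, 1883, 1149 and 679 CPM in set 3 of ending 1 and 949.5, 734, 552 and 560.3 CPM in set 1 of ending 2. Meg3 had ratios of -0.52, -0.59 and -0.84 in ending 1 and -0.60, -0.63 and -0.48 in ending 2. Both gaps were smaller within the class of other mesenchyme. In other mesenchyme of sets 1 and 2 Cdkn1c stood at -0.32 and -0.32 in ending 1 and -0.27 and -0.11 in ending 2, and Meg3 at -0.44, -0.45, -0.42 and -0.34.

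Other growth genes had no common direction. Plagl1 was lower in cycling cells of 5 sets, with -0.68, -0.55 and -0.65 in ending 1 and -0.32, -0.28 and 0.21 in ending 2. Dlk1 stood at -0.29, -0.44 and 1.14 in ending 1 and 0.17, 0.25 and 2.30 in ending 2, so it was higher in cycling cells of set 3 in both endings, where these are also more often other mesenchyme. H19 stood at 0.09, 0.18 and -0.59 in ending 1 and -0.11, -0.34 and -0.07 in ending 2, and Igf2 at 0.34, 0.31 and -0.53 in ending 1. The members' median was -0.15 in ending 1 and 0.10 in ending 2, beside 0.03 and 0.01 over all genes.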

How the data were processed

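The authors deposited 1 matrix of raw UMI counts per gene symbol and cell for all samples (10x 3' v3, per the labels' protocols). Cell Ranger 2.1.1, Seurat and mm10 are named, without roles, per the submitters' processing notes, and the annotation is not given in the sources used here. Each lane was loaded with 35000 cells for a target of 20000. Cells under 1000 genes (108) or over 5% mitochondrial UMIs (367) were left out, with 84 doublets called by Scrublet (0.404% of cells in ending 1, too few for the caller to have worked there), so doublets may remain.

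CPM came from summed UMIs. Ratios carry exact conditional binomial 95% intervals, levels exact Poisson and shares Clopper-Pearson ones (scipy 1.17.1). Cells were clustered per ending with scanpy 1.11.5 and leidenalg 0.10.2 (2000 variable genes without the members, 30 components, 15 neighbours, resolution 1). Clusters with 3 or more PDGFRA-high markers at 2-fold took that name, and Pdgfra itself was not required. It was not among those markers in clusters of 881 and 55 cells in ending 2, with 280.4 and 361.1 CPM of Pdgfra. The same held for the cluster of 55 cells in ending 1 with 89.5 CPM. Another lineage needed 3 markers at 4-fold with 1 or more in the top 10 genes, a rule set after seeing the data. Other mesenchyme needed 3 markers at 100 CPM, a limit that every cluster met, the glia-like one with 8 such markers included. Thinning to 2000 UMIs left out 1 to 13 cells per set. The ratio and correlation steps were tested on simulated data, and the totals after thinning were checked on cells of set 3 of ending 1.

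The members and all lists were chosen with earlier results of these data known. Members at 20 CPM in 1 set have all values printed. The 5 largest and 3 smallest pairs are named, 3 partners are named for each member at 100 CPM in every set, and genes of other lists are named at 2-fold in both endings. Alternatives tried are given with their effect at the end, apart from requiring Pdgfra among the class markers.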

Additional observations from a re-analysis of the deposited data

Results flagged for a closer look

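Nnat, Peg10 and Ppp1r9a went opposite ways in the endings when set 3 was compared with sets 1 and 2, lower in ending 1 and higher in ending 2 against each of the other sets. The log2 ratio of ending 2 minus that of ending 1 was 1.558 for Nnat (-0.92 and 0.64), 1.305 for Peg10 (-0.90 and 0.40) and 1.252 for Ppp1r9a (-0.46 and 0.79). Within PDGFRA-high cells the ratios in endings 1 and 2 were -0.33 (-0.52 to -0.14) and 0.00 (-0.11 to 0.12) for Nnat, 0.53 (-0.06 to 1.18) and -0.01 (-0.41 to 0.41) for Peg10 and -0.81 (-1.25 to -0.35) and 0.41 (0.03 to 0.81) for Ppp1r9a, so in that class the opposite directions were seen for Ppp1r9a only. Within other mesenchyme, where the signs were opposite for all 3, they were -0.54 (-0.67 to -0.40) and 0.40 (0.10 to 0.69) for Nnat, -0.20 (-0.49 to 0.07) and 1.21 (0.52 to 1.84) for Peg10 and -0.11 (-0.50 to 0.25) and 1.17 (0.46 to 1.82) for Ppp1r9a. That class held only 137 and 115 cells of set 3 in endings 1 and 2. Over all cells the counting intervals of each pair of ratios do not overlap, but the difference between the endings was not tested, since each ending is a single set of cells with its own gene list, depth and ages that no label gives.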

How the results depend on the processing

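Of 350 alternative values for 50 values of named genes, 339 kept their side of the limit, 8 fell under it, 2 passed it and 1 past it changed sign (Zdbf2 in set 3 of ending 1, 0.70 in PDGFRA-high cells only). Signs changed in 27 of the 350, most of them under the limit. These were 18 of 50 values in PDGFRA-high cells only and 9 of 300 elsewhere (Igf2, Igf2r, Peg3, Sgce and Usp29). With the mean of per-cell CPM Ndn (-1.04) and Cdkn1c (1.07) passed 2-fold in ending 1, and without set 1 of that ending H19 was at 0.99. Members higher in set 3 of ending 1 numbered 2 with the mean of per-cell CPM (beside 10.4% of all genes), 0 without set A1 (set 1 of ending 1, beside 9.995%) and 3 at 1.5-fold (beside 17.2%), and members lower numbered 10 at 1.5-fold (beside 15.9%). In ending 2 members higher numbered 6 at 1.5-fold (beside 21.1%). In PDGFRA-high cells only, members lower numbered 1 in ending 1 and 0 in ending 2, and members higher 0 in ending 2. The medians there were -0.35 (ending 1) and 0.0914 (ending 2, changed sign) for growth-promoting and 0.179 and 0.181 for growth-limiting members. The growth-limiting median was 0.49 with the mean of per-cell CPM in ending 1 and 1.09 at 5 CPM in ending 2. Between classes in ending 2, the top 10% of cells by Pdgfra gave 0 higher and 1 lower (beside 4.43% and 3.18%), and 1.5-fold gave 4 and 6 (beside 13.3% and 12.5%). In cycling cells of ending 1, members higher numbered 0 with G2 and M genes only, 0 at 1000 UMIs and 0 in other mesenchyme only, and members lower 1 at 1000 UMIs (beside 3.62%) and 5 at a fold limit of 5 to 4 (beside 10.2%). In ending 2, members higher numbered 0 with 1 or more cycling UMIs and 0 in other mesenchyme only, and members lower 1 at 1000 UMIs (beside 3.96%), 3 at that limit (beside 9.01%) and 2 (Meg3 and Cdkn1c) without set B3 (set 3 of ending 2). In other mesenchyme set 3 held only 2 and 24 non-cycling cells in endings 1 and 2, and without set 3 Peg10 and Asb4 counted as higher there in ending 1 and Asb4 in ending 2. The median correlation in ending 1 was 0.00838 at 1000 UMIs, 0.0259 at 5000 and 0.0260 in other mesenchyme, and that of the list sums 0.151 at 1000 and 0.328 at 5000. In ending 2 the median was 0.00619 at 1000 UMIs, 0.0139 at 3000, 0.0128 by Spearman's rho, 0.00696 without cycling cells, 0.0191 in other mesenchyme and 0.0150 without set B3. The list sums there stood at 0.0504 at 1000, 0.143 at 3000, 0.0844 without cycling cells, 0.262 in other mesenchyme and 0.0887 with a second thinning. The cause of these shifts was not tested. Cell filter, denominator, clustering resolution and leaving out set 2 left the counts within 1.5 times. No paired analysis was possible because the suffixes are not tied to samples. Depth in ending 2, with medians of 3548 to 4184 UMIs per cell, limits correlations and genes under 20 CPM.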

Other observations

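Single clusters showed a wider range than the classes. The clusters with the highest Cdkn1c were 1 PDGFRA-high cluster in each ending, of 706 cells in ending 1 and 636 in ending 2, and they shared the leading genes Npnt, Htra1, Slco2a1, Spock3 and AW112010. H19 stood there at 1554 and 929 CPM, Cdkn1c at 2626 and 2549.6 CPM and Dlk1 at 75.2 and 64.5 CPM. The highest H19 of any cluster in its ending was in the same clusters. The cluster of 706 cells also had Epcam, Cdh1, Krt8, Krt18, Krt19, Vil1, Fabp1, Fabp2 and Rbp2 of epithelium at 4-fold or more over other cells. It had Tyrobp and C1qa of blood at that fold too. Another PDGFRA-high cluster of ending 1, of 216 cells, had Ptprc, Cd52, Tyrobp, Fcer1g, C1qa, Krt8, Krt19 and Vil1 at that fold. The source of these transcripts was not tested. Dlk1 was highest in clusters of other mesenchyme, at 1074 CPM in a cluster of 312 cells led by Dpt, Aspn and Mgp in ending 1 and at 619 CPM in a cluster of 87 cells led by Gdf10, Cdo1 and Kcnn3 in ending 2. Clusters come from the same cells, so these values are a description.

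Among genes at 50 CPM, the lowest correlations with members at 100 CPM follow. Meg3 with the histone gene H2afz stood at -0.233 in ending 1. Nnat with Col1a2 stood at -0.212 in ending 1, and Cdkn1c with the ribosomal gene Rpsa at -0.215 in ending 2. These pairs were chosen after their values were seen.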
